A study of Mus musculus with 8 samples.

Results

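Catecholamines are made from tyrosine in neurons that hold a short chain of enzymes and transporters, and the first enzyme of that chain needs the cofactor tetrahydrobiopterin. The 10 genes described here cover both: *Th*, *Ddc*, *Slc18a2* and *Slc6a3* for dopamine, and *Gch1*, *Gchfr*, *Pts*, *Spr*, *Qdpr* and *Pcbd1* for tetrahydrobiopterin. They were named by symbol, out of 35968 mouse genes to which the transcripts in the data could be joined, and they were chosen by a female-male difference in *Gch1* that was already known from these samples. That difference and all other female-male values of the 10 genes are therefore given as a description, and nothing is read from whether they passed a test. The data are from Flow-Seq of TN SST neurons, the somatostatin neurons of the tuberal nucleus (TN) of the hypothalamus, which take part in the control of feeding. All mice were adult *Sst-Cre/+* heterozygotes on a C57BL/6J background, in which Cre is made from the *Sst* locus, and all received AAV2-FLEX-tdTomato bilaterally in the TN at least 2 weeks before the tissue was collected. The 2 groups were 4 cycling females, whose estrous stage is not given, and 4 males with intact gonads, with 1 library per mouse from live, nucleated cells sorted for high red fluorescence. No library of unsorted tissue was analysed here. In other mice of the study, in which a virus aimed at the TN was used to ablate *Sst* neurons, *Sst* also declined in the neighboring arcuate nucleus, which is known to hold dopamine neurons, and no measure of virus spread in the sequenced mice was analysed here.

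Tyrosine hydroxylase, encoded by *Th*, turns tyrosine into L-DOPA and sets the pace of catecholamine synthesis, and aromatic L-amino acid decarboxylase, encoded by *Ddc*, turns L-DOPA into dopamine. The vesicular transporter of *Slc18a2* loads monoamines into synaptic vesicles, and the transporter of *Slc6a3* takes dopamine back up from outside the cell. Tetrahydrobiopterin is built from GTP in consecutive steps by GTP cyclohydrolase 1 (*Gch1*), which is rate limiting, 6-pyruvoyltetrahydropterin synthase (*Pts*) and sepiapterin reductase (*Spr*). Each time it is used it is restored by pterin-4a-carbinolamine dehydratase (*Pcbd1*) and dihydropteridine reductase (*Qdpr*), while the product of *Gchfr* holds GTP cyclohydrolase 1 back when the cofactor is plentiful. Tetrahydrobiopterin also serves the nitric oxide synthases and tryptophan hydroxylases, so its genes are not restricted to dopamine cells. In the tuberal hypothalamus, dopamine neurons are best known for restraining prolactin release from the pituitary.

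The sequence before the start of a gene is where many regulatory proteins bind, and it is shown for the rate-limiting enzyme of each pathway and for *Ddc*, whose transcripts begin at separate starts in the annotation. Sequences are from RefSeq on GRCm38.p6, the build also called mm10, and cover the 250 bases before the annotated first base, written 5′ to 3′ on the strand of the gene. Capitals mark the cAMP response element TGACGTCA, its shorter form TGACG, the CCAAT box CCAAT and the NBRE AAAGGTCA, a motif bound by NR4A factors, on either strand. *Th* is at chr7:142899996-142900245, *Gch1* at chr14:47189414-47189663, the upstream start of *Ddc* at chr11:11898145-11898394 and the downstream start at chr11:11890409-11890658, all on the - strand.
Th: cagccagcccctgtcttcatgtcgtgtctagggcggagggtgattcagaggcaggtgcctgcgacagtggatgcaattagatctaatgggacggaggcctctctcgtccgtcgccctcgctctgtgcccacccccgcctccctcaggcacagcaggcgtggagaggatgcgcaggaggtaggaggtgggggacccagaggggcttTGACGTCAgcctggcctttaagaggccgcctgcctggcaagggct
Gch1: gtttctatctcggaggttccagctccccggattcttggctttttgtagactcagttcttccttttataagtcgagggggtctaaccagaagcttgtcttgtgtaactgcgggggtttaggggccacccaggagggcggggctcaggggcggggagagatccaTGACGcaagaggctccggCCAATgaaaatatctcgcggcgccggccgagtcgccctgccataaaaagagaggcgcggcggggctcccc
Ddc upstream start: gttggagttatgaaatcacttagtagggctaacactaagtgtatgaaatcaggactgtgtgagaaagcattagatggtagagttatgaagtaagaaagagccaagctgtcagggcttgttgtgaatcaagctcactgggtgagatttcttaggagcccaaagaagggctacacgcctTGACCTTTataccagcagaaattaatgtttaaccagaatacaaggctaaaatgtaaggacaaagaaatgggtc
Ddc downstream start: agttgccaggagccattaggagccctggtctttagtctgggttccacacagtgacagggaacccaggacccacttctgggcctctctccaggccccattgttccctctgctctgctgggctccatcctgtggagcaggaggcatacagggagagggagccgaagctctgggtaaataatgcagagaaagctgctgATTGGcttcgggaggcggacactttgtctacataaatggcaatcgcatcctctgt
The *Th* window held the full cAMP response element 45 bases before the start, a motif with the letters TGACG within it on both strands. This element was present in 1.55% of the 32851 windows of the same length over all genes. The *Gch1* window held the shorter TGACG 88 bases before the start and CCAAT 70 bases before it, present in 17.8% and 33.8% of all windows. The upstream *Ddc* window held the NBRE on the opposite strand 73 bases before the start, as did 1.34% of all windows, and the downstream *Ddc* window held CCAAT on the opposite strand 55 bases before its start. All 10 genes had a window, and *Ddc* had 2, which makes 11. The letters GGGCGG, to which SP1 can bind, were in windows of 8 of the 10 genes and in 32.7% of all windows, and the full estrogen response element was in none of the 11 and in 0.0639% of all windows. The GC content was 64.4% for *Th*, 59.2% for *Gch1*, 40.8% for the upstream and 56.0% for the downstream start of *Ddc*, beside a median of 52.4% over all windows. These matches describe letters in the reference and do not show binding in these cells.

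To compare genes with one another, levels were taken as TPM, the deposited values that count transcripts per 1000000 transcripts and so divide by transcript length. *Qdpr* had the highest level of the 10 genes, with a mean of 107.5 TPM over the 8 mice, and lay above 90.3% of the genes tested. Next came *Pcbd1* with 47.8, *Ddc* with 39.9, *Spr* with 28.2, *Th* with 22.7 and *Pts* with 19.2 TPM. *Gch1* followed with 5.72, *Slc18a2* with 4.14, *Slc6a3* with 1.33 and *Gchfr* with 0.412 TPM. The rate-limiting enzyme of cofactor synthesis was thus present at a lower transcript level than the enzymes of each later step. Of the 9 neighboring pairs in this order, 4 differed beyond the spread between mice, each in the same direction in 8 of 8 mice: *Qdpr* above *Pcbd1*, *Ddc* above *Spr*, *Pts* above *Gch1* and *Slc18a2* above *Slc6a3* (2-sided exact sign-flip permutation test on log2(TPM + 0.1), Benjamini-Hochberg adjusted over 9 pairs, p = 0.0176 each). The smallest unadjusted p that 8 mice allow is 0.00781. The other neighbors were not separated. *Pcbd1* lay above *Ddc* in 5 of 8 mice (adjusted exact permutation p = 0.398), *Spr* above *Th* in 6 (adjusted exact permutation p = 0.117), *Th* above *Pts* in 4 (adjusted exact permutation p = 0.342), *Gch1* above *Slc18a2* in 5 (adjusted exact permutation p = 0.360) and *Slc6a3* above *Gchfr* in 6 (adjusted exact permutation p = 0.0844).

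**Figure D1:**
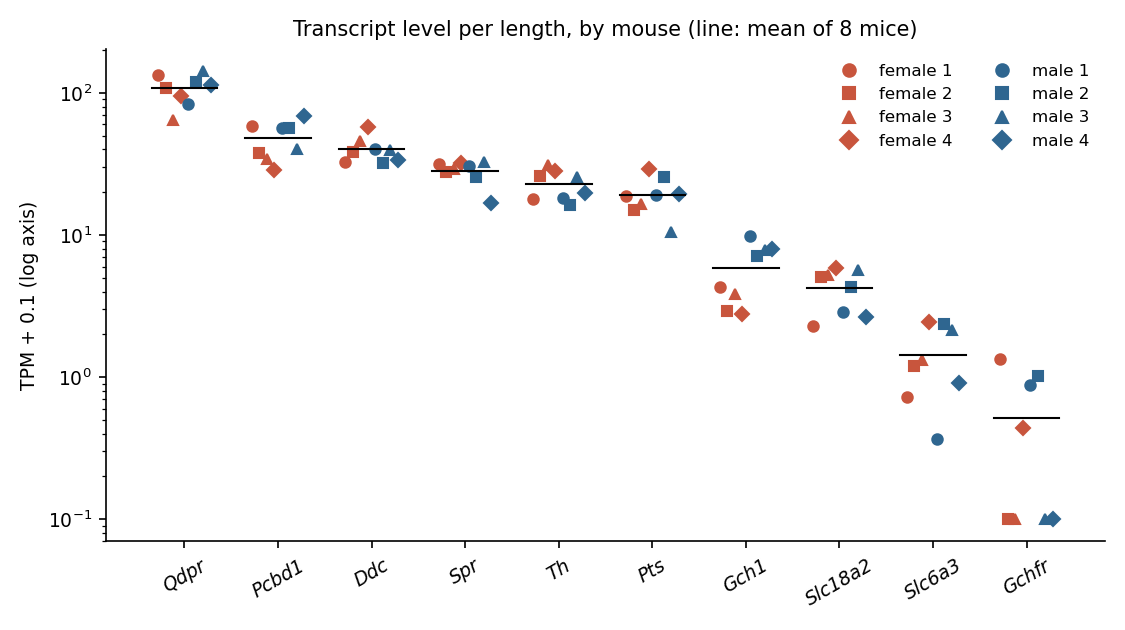
Level of each gene in each mouse as TPM plus 0.1 on a log axis, with females in red, males in blue and the mean of the 8 mice as a black line. *Qdpr* stands at the top with a mean of 107.5 TPM, *Gch1*, *Slc18a2*, *Slc6a3* and *Gchfr* lie under 10 TPM in every mouse, and *Gch1* is the gene in which the colors separate.

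For values within a gene, counts were scaled by edgeR's TMM method and are given as CPM, counts per 1000000 counts of the library. *Th* (chr7:142892752-142931128, - strand) had between 147 and 528 counts per mouse. This annotated interval reaches upstream of the promoter window shown above for *Th*, which lies inside it. Counts were not divided by transcript start for *Th*. Its level was 16.7, 26.6, 26.1 and 24.7 CPM across females 1 to 4, against 16.8, 16.4, 24.8 and 18.5 CPM across males 1 to 4. Female 1 was the lowest female and male 3 the highest male, and the groups overlapped. The mean was 23.5 ± 4.63 CPM over the females and 19.1 ± 3.92 CPM over the males (SD, n = 4 each), which is a log2 fold change, females minus males, of 0.30 with a standard error (SE) of 0.191. Of the *Th* counts, 96.5% were assigned to the transcript *Th-201*.

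*Ddc* (chr11:11814101-11898144, - strand) was steadier from mouse to mouse than any other of the genes that could be tested but *Spr*, with a coefficient of variation of 13.3% beside 13.1% for *Spr*. Females 1 to 4 had 23.2, 31.2, 30.5 and 33.5 CPM and males 1 to 4 had 28.7, 26.3, 32.4 and 24.2 CPM. The lowest and the highest mouse were both female, so that the males lay within the female range. The means of 29.6 ± 4.44 and 27.9 ± 3.50 CPM (SD, n = 4 each) correspond to a log2 fold change of 0.09 (SE 0.142). By TPM, *Ddc* exceeded *Th* in each mouse, by between 1.47 and 2.21 times.

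Of the 10 annotated *Ddc* transcripts, 6 begin at or within 100 bases of the upstream or the downstream start shown above, which are 7736 bases apart. The share of *Ddc* counts on the 2 transcripts from the upstream start was 70.6%, 78.7%, 73.4% and 55.4% across females 1 to 4, against 68.0%, 74.7%, 11.6% and 66.9% across males 1 to 4. The 4 transcripts from the downstream start held 29.4%, 21.3%, 23.2% and 34.0% in the females and 26.1%, 24.4%, 79.5% and 27.2% in the males. Male 3 stood apart from the other mice, with 243.0 of its 362 *Ddc* counts on *Ddc-202*, a transcript that held no more than 16.4 counts in any other mouse. Where transcripts share sequence, counts are divided among them by kallisto's estimate, and the *Ddc* total of male 3, 32.4 CPM, was within the range of the other mice.

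**Figure D2:**
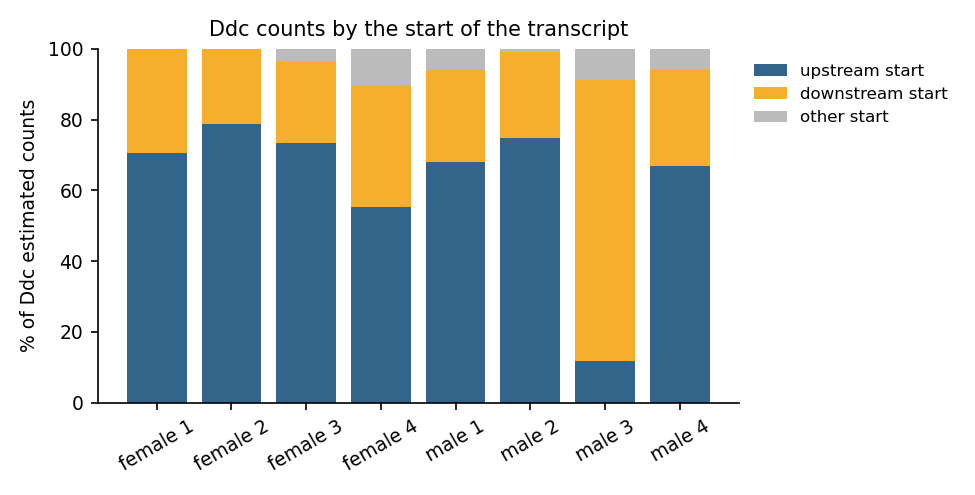
Share of the *Ddc* estimated counts in each mouse, in percent, by where the transcript starts. The upstream start holds between 55.4% and 78.7% in 7 mice and 11.6% in male 3.

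*Slc18a2* (chr19:59260896-59296012, + strand) had 4.88, 11.1, 9.57 and 12.1 CPM across females 1 to 4, against 6.19, 9.62, 12.1 and 5.79 CPM across males 1 to 4. Both sexes spanned nearly the same range, with means of 9.42 ± 3.19 and 8.42 ± 2.98 CPM (SD, n = 4 each) and a log2 fold change of 0.16 (SE 0.329). *Slc6a3* (chr13:73536747-73578672, + strand) was the most variable of the genes tested here, from 0.489 CPM in male 1 to 4.77 CPM in male 2, resting on 6 to 52 counts per mouse. Females 1 to 4 had 1.22, 2.29, 2.07 and 4.32 CPM, and males 3 and 4 had 3.93 and 1.64 CPM. Its log2 fold change of -0.13 had a standard error of 0.642, and its sign was not resolved beyond this spread between mice.

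Among the genes of cofactor synthesis, *Gch1* (chr14:47153895-47189413, - strand) differed most between females and males. It had 58, 32, 105 and 45 counts across females 1 to 4, against 183, 128, 134 and 103 across males 1 to 4. In CPM these were 6.44, 4.89, 5.18 and 4.05 in the females and 14.9, 11.7, 11.98 and 13.0 in the males. The lowest male, with 11.7 CPM, lay above the highest female, with 6.44 CPM. The means were 5.14 ± 0.990 CPM for females and 12.9 ± 1.44 CPM for males (SD, n = 4 each), 2.51 times as high in males. The log2 fold change was -1.33 (SE 0.190). Between 87.4% and 96.6% of the counts in each mouse were on *Gch1-201*, the only coding transcript, and none of its stretches of 31 bases occurs in a transcript of another gene.

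*Gchfr* (chr2:119167773-119172390, + strand), the partner that restrains GTP cyclohydrolase 1, had 3, 0, 0 and 1 counts across females 1 to 4, against 3, 3, 0 and 0 across males 1 to 4. No mouse exceeded 3 counts, taken here as the limit of detection and equal to between 0.148 and 0.458 CPM in these libraries, a limit that covers counting error only. *Gchfr* was the single gene of the 10 whose counts were too low for a test.

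The genes of the later steps of synthesis had similar values in both sexes. *Pts* (chr9:50521617-50528724, - strand) had 8.10, 7.03, 6.86 and 10.7 CPM across females 1 to 4, against 8.63, 9.81, 6.17 and 7.30 CPM across males 1 to 4, a log2 fold change of 0.03 (SE 0.222). Only 55.5% of its counts were on coding transcripts, and its retained-intron transcript *Pts-203* held 24.1%. *Spr* (chr6:85130176-85137766, - strand) had 19.5, 17.4, 15.8 and 17.6 CPM in the females and 18.4, 17.0, 19.8 and 12.7 CPM in the males, a log2 fold change of 0.05 (SE 0.157). In *Spr* the females lay within the range of the males, and in *Pts* female 4 was the highest and male 3 the lowest mouse. *Spr-201* shares 13.2% of its stretches of 31 bases with the pseudogene *Spr-ps1*, so the *Spr* values are uncertain to that extent.

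The genes that restore the used cofactor were lower in 3 of the females than in most males. *Pcbd1* (chr10:61089331-61094324, + strand) had 15.4, 9.01, 9.47 and 9.18 CPM across females 1 to 4, against 19.4, 15.6, 14.6 and 16.8 CPM across males 1 to 4. Female 1 lay among the males and the other 3 females lay below every male. The means of 10.8 ± 3.11 and 16.6 ± 2.07 CPM (SD, n = 4 each) give a log2 fold change of -0.62 (SE 0.204). *Qdpr* (chr5:45434021-45450236, - strand) had 64.2, 49.6, 30.9 and 37.0 CPM in the females and 43.8, 65.0, 59.7 and 68.4 CPM in the males. Here too female 1 lay among the males, and male 1 fell within the female range, so the groups overlapped (log2 fold change -0.39, SE 0.229). *Qdpr* transcripts share between 11.1% and 25.2% of their stretches of 31 bases with *Gm42413*, an antisense gene that overlaps them, and whether reads were assigned by strand is not given in the sources used here.

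**Figure D3:**
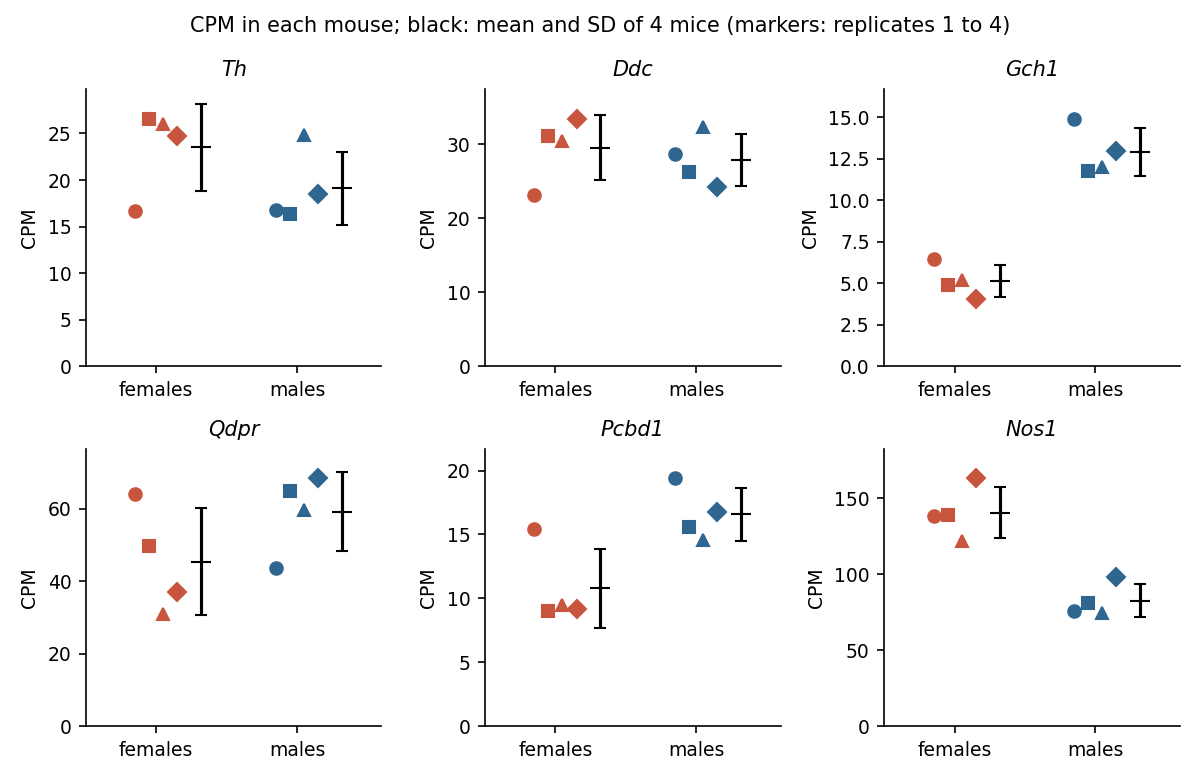
CPM in each mouse for *Th*, *Ddc*, *Gch1*, *Qdpr*, *Pcbd1* and *Nos1*, with females in red, males in blue, marker shapes for replicates 1 to 4 and the mean and SD of 4 mice in black. The sexes do not overlap in *Gch1*, higher in males, or *Nos1*, higher in females, and they overlap in the other 4 genes.

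Over all genes, 15194 had enough counts to be tested between females and males (quasi-likelihood test of edgeR, called where the Benjamini-Hochberg adjusted p was under 0.05). The calls made up 0.112% of these genes on the female side and 0.0461% on the male side. An unadjusted p under 0.05 was found for 3121 of the 15194 genes, the background for the list counts given below. Of the 9 genes tested here, 1, *Gch1*, was called higher in males and 0 were called higher in females, and DESeq2's Wald test also called 1, where it called 6.92% of all genes in either direction. Every male lay above every female in 1 of the 9, again *Gch1*, and in 3.94% of all genes tested. Every female lay above every male in 0 of the 9 and in 6.48% of all genes. Since *Gch1* was known to differ when the genes were chosen, nothing is read from these counts. The lists of other genes below were also chosen with earlier results of these data known, and their calls are descriptions. The median log2 fold change was 0.03 over the 9 genes and -0.004 over all genes, and 7 of the 9 lay within 2 standard errors of 0. The count of 1 fell to 0 without any one of females 2, 3 and 4 or males 2, 3 and 4, and it rose to 2 without female 1, when *Pcbd1* was added with a log2 fold change of -0.84.

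Directions of the small differences depended on the scale. The mean log2 CPM of 6 pan-neuronal genes was 0.33 higher in females than in males. The 6 genes were uneven. Their edgeR log2 fold changes were 0.008 (*Elavl4*), 0.11 (*Stmn2*), 0.14 (*Tubb3*), 0.48 (*Snap25*), 0.55 (*Syt1*) and 0.68 (*Rbfox3*). Relative to the mean of these 6 genes, *Gch1*, *Pcbd1* and *Qdpr* were lower in females by a log2 difference of -1.64, -0.97 and -0.75. *Th*, *Ddc*, *Slc18a2*, *Pts* and *Spr*, fitted slightly higher in females by TMM, became slightly lower, between -0.04 for *Th* and -0.30 for *Pts*. No direction is therefore given for these 5 genes.

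**Figure D4:**
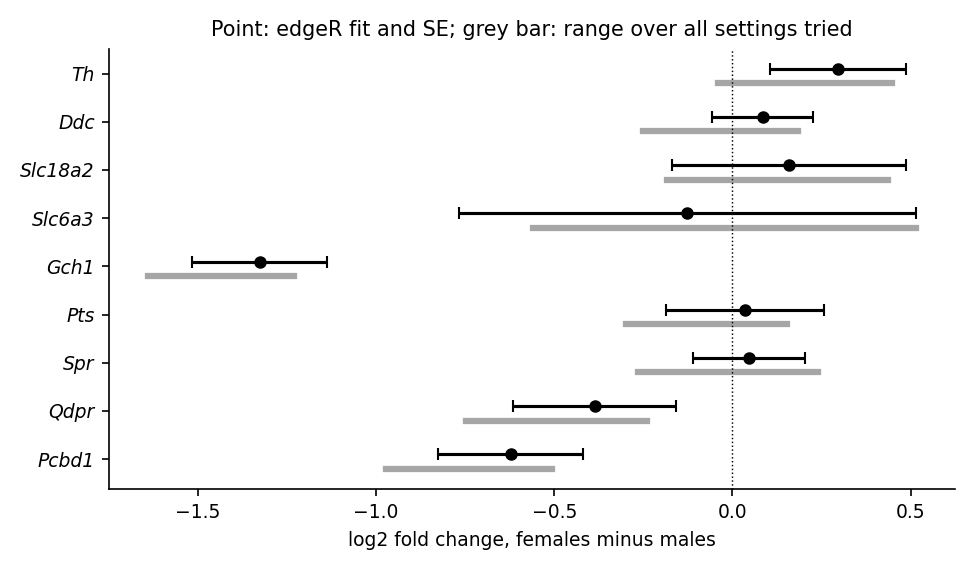
Log2 fold change of each of the 9 genes tested, females minus males, as a black point with its standard error from edgeR, above a grey bar that spans all 19 alternative settings. The bars of *Gch1*, *Qdpr* and *Pcbd1* stay below 0, from -1.64 to -1.23 for *Gch1*, and the bars of the other 6 genes cross 0.

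Because *Th* and *Gch1* belong to one route, their proportion was also taken within each mouse. By TPM, *Th* was 4.25, 9.25, 8.20 and 10.5 times as high as *Gch1* across females 1 to 4, against 1.86, 2.30, 3.28 and 2.50 times as high across males 1 to 4. The lowest female ratio lay above the highest male ratio. This ratio contains the *Gch1* values by which the genes were chosen and is a description of them. *Spr* over *Pts*, which contains neither, lay between 0.862 and 3.15 over the 8 mice and its female values lay inside the range of the males.

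The pattern over the 8 mice gave a further description. By Pearson correlation of log2 CPM over 8 mice, the genes most like *Th* were *Zfp51* (r = 0.97, rho = 0.95), *Jmjd8* (0.97, 0.93), *Hsf4* (0.96, 0.86), *Trim62* (0.93, 0.81) and *Vps37d* (0.93, 0.86). Those most like *Gch1* were *Umodl1* (r = 0.97, rho = 0.95), *Hspb8* (0.97, 0.90), *Slc12a7* (0.97, 0.95), *Fam167a* (0.97, 0.83) and *Rab8a* (0.97, 0.98). Within the 10 genes, *Ddc* and *Slc18a2* had an r with *Th* of 0.81 and 0.77 and stood at places 105 and 223 of 15193 genes. *Pcbd1* had an r of 0.91 with *Gch1*, at place 62, and of -0.85 with *Th*. The points share library, depth and sex, and the correlations carry no test.

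Genes that make noradrenaline and adrenaline or take up noradrenaline were nearly absent. Dopamine beta-hydroxylase, which makes noradrenaline from dopamine (*Dbh*), had at most 5 counts in a mouse. *Pnmt*, which makes adrenaline, had 4 counts in male 1 and 0 elsewhere, and the noradrenaline transporter *Slc6a2* had at most 6. The noradrenergic marker *Hand2* had 0 counts in each mouse, which allows up to the 3 counts of the limit of detection, *Phox2a* had 1 count in male 1 and *Gata3* at most 8 counts. For the 11 genes of further catecholamine steps, 7 could be tested and 0 passed in either direction (edgeR, lowest adjusted p = 0.182), with 2 at an unadjusted p under 0.05 and 0 called by DESeq2. Monoamine oxidase A (*Maoa*), which breaks down monoamines, had 51.9 ± 7.20 CPM for females and 40.8 ± 3.98 CPM for males (SD, n = 4 each).

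Of the enzymes that use tetrahydrobiopterin, neuronal nitric oxide synthase (*Nos1*, chr5:117781032-117958840, + strand) had the highest level of the list, with a mean of 21.2 TPM. Its values were 138, 139, 122 and 163 CPM across females 1 to 4, against 75.9, 81.0, 74.8 and 98.2 CPM across males 1 to 4. Each female exceeded each male, the nearest being 122 and 98.2 CPM. The means of 141 ± 16.9 and 82.5 ± 10.8 CPM (SD, n = 4 each) give a log2 fold change of 0.77 (SE 0.116; by edgeR's quasi-likelihood test the adjusted p = 0.0494), opposite in sign to *Gch1* and 0.44 relative to the neuron markers described above. The adjusted p lay at or above 0.05 in 12 of 18 alternatives, up to 0.153 by edgeR without male 2. DESeq2's Wald test was not among these 12 and gave the lowest adjusted p, 2.23e-06. The log2 fold change stayed between 0.68 and 0.86 in all 18 alternatives. By TPM, *Nos1* was between 6.37 and 12.6 times as high as *Gch1* in females and between 1.42 and 2.24 times in males, a ratio that again holds the *Gch1* values. Of the 7 enzymes of this list, 3 could be tested and *Nos1* alone passed. The list was chosen with earlier results of these data known, so this call and its p describe *Nos1* and are not an independent test. *Tph1* and *Tph2*, the tryptophan hydroxylases of serotonin synthesis, had at most 4 counts, apart from 21 for *Tph2* in male 1.

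The 6 related genes of pterin and GTP metabolism could all be tested and 0 passed (edgeR, lowest adjusted p = 0.259), with 0 at an unadjusted p under 0.05 and 0 by DESeq2. They include *Cbr1* and *Akr1b3*, reductases that can stand in for sepiapterin reductase, with 29.9 ± 2.84 and 28.4 ± 3.99 CPM for females and 29.9 ± 4.77 and 35.1 ± 6.16 CPM for males (SD, n = 4 each). Of 6 genes for dopamine receptors and the prolactin receptor, 3 could be tested and 0 passed by edgeR, with 2 at an unadjusted p under 0.05 and 1, *Prlr*, by DESeq2. The D1 receptor gene *Drd1* had 11.6 ± 4.42 and 6.34 ± 2.22 CPM in females and males, and the D2 receptor gene *Drd2* 4.46 ± 0.645 and 4.51 ± 1.93 CPM (SD, n = 4 each). The prolactin receptor gene *Prlr* had 81.0 to 123 CPM in females and 61.8 to 78.2 CPM in males without overlap, and missed the threshold (log2 fold change 0.61, SE 0.135; adjusted p = 0.0831 by edgeR).

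Of 16 transcription factors known from dopamine neurons of different brain regions, 12 could be tested and 0 passed by edgeR, with 0 at an unadjusted p under 0.05 and 0 by DESeq2. Of those best known from midbrain dopamine neurons, *Pitx3* and *Foxa2* had 0 counts in each mouse, *Lmx1a* had at most 47, *Lmx1b* at most 56, *Foxa1* at most 21 and *En1* at most 12. *Lmx1a*, *Lmx1b* and *En1* were highest in male 2, the mouse with the highest *Slc6a3*, and *Nr4a2* too was highest there, with 336 counts. *Foxa1* was not, with 1.74 CPM in male 2 and 2.44 CPM in female 2. *Th* was lowest in male 2, with 16.4 CPM, and *Ddc* and *Slc18a2* were not highest there. *Lmx1a* had no more than 7 counts in any other mouse and *Lmx1b* no more than 16. Female 4 and male 3 had *Slc6a3* levels of 4.32 and 3.93 CPM, near the 4.77 CPM of male 2. Their counts were 4 and 6 for *Lmx1a* and 0 and 9 for *En1*. The part of midbrain cells in the *Slc6a3* values was not tested. *Otp*, *Isl1* and *Dlx1*, which act in hypothalamic neurons, were present with means of 151, 44.3 and 15.6 TPM over the 8 mice, and *Nr4a2* with 10.3 TPM. The remaining factors of the list were lower than *Dlx1*. Their means were 11.6 (*Etv1*), 7.16 (*Dlx5*), 6.88 (*Dlx2*), 2.38 (*Meis2*), 0.754 (*Onecut3*) and 0.333 TPM (*Onecut2*). *Sst*, from whose locus the Cre that labeled the sorted cells is made, had a mean of 1188 TPM. It was between 33.6 and 70.0 times as high as *Th* in single mice. The GABA-synthesis gene *Gad1* was between 7.09 and 16.3 times as high as *Th*. In bulk RNA of this kind, *Th* in few cells at a high level and *Th* in many cells at a low level cannot be told apart, nor can fewer cells of a type and less RNA per cell.

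Transcripts of other cell types varied with the mice. The summed level of 8 microglia markers was 1627, 571, 286 and 817 CPM across females 1 to 4, against 652, 3188, 1837 and 3091 CPM across males 1 to 4. All 8 were fitted lower in females and 0 passed the test of edgeR, with 5 at an unadjusted p under 0.05 and 0 by DESeq2 (median log2 fold change -1.42). Over all genes, 3121 of 15194 had an unadjusted p under 0.05, and 49.4% were fitted higher in females. The summed level of 6 oligodendrocyte markers was 2198, 904, 513 and 483 CPM in the females and 879, 1883, 1954 and 1713 CPM in the males (6 of 6 fitted lower in females, 0 passed by edgeR or DESeq2, 1 at an unadjusted p under 0.05). The 6 neuron markers summed to between 1679 and 2065 CPM in females and between 1257 and 1588 CPM in males, with 6 of 6 fitted higher in females, 0 past edgeR's threshold, 3 at an unadjusted p under 0.05 and 3 past that of DESeq2. Astrocyte markers summed to 189 to 700 CPM in females and 491 to 759 CPM in males. The 6 interferon-response genes were all fitted lower in females and 0 passed by edgeR or DESeq2, with 2 at an unadjusted p under 0.05. No list was at 0 in any mouse.

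Female 1 had the highest oligodendrocyte, microglia and interferon-response sums among the females, and it was also the female with the highest *Gch1*, *Pcbd1* and *Qdpr*. Male 1 had the highest *Gch1* and *Pcbd1* of all mice, 14.9 and 19.4 CPM. Its microglia and oligodendrocyte sums, 652 and 879 CPM, were the lowest of the males, as was its *Qdpr*, 43.8 CPM. In the microglia sum, males 2, 3 and 4 lay above every female, while male 1 lay within the female range. In the oligodendrocyte sum, males 2, 3 and 4 lay above females 2, 3 and 4 and below female 1. The interferon-response genes summed to 522, 86.0, 56.6 and 65.8 CPM across females 1 to 4, against 301, 835, 260 and 489 CPM across males 1 to 4, so that females 2, 3 and 4 lay below every male. The part of other cells in *Gch1*, *Pcbd1* and *Qdpr* was not tested. Without female 1 and male 2, the mice with most counts of the antigen-presentation genes *Cd74* and *H2-Aa*, the *Gch1* log2 fold change was -1.50 and 1 of the genes tested was called. Females 2, 3 and 4 still had microglia sums of 571, 286 and 817 CPM, against 652, 1837 and 3091 CPM in males 1, 3 and 4. That fit is therefore no test of the part of other cells.

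**Figure D5:**
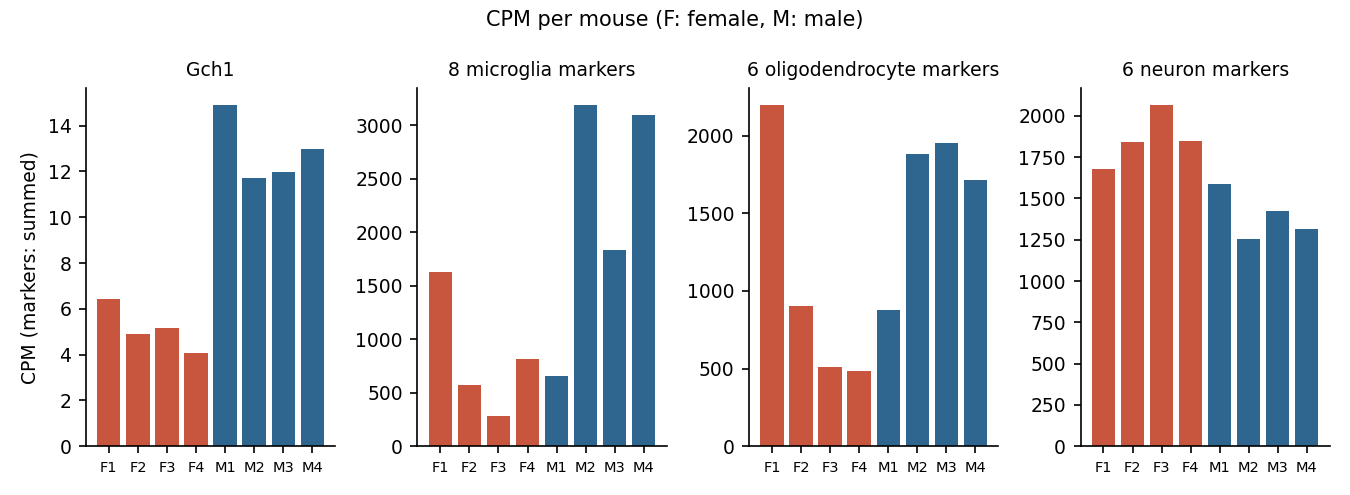
CPM of *Gch1* and summed CPM of microglia, oligodendrocyte and neuron markers in each mouse, with females (F1 to F4) in red and males (M1 to M4) in blue. *Gch1* separates the sexes. In the microglia sum M2, M3 and M4, from 1837 to 3188 CPM, stand above every female and M1, at 652 CPM, lies among them, and in the oligodendrocyte sum F1, at 2198 CPM, stands above every male.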

How the data were processed

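The authors sequenced RNA of sorted TN SST neurons from 4 female and 4 male mice with single-end reads and assigned these to mouse transcripts (mm10) with kallisto 0.46.2, per the submitters' processing notes, where DESeq2 2.11.40.6 is named for their own tests. The authors deposited the estimated count of each of 118489 transcripts, not normalized, and the TPM, a length-normalized signal scaled to 1000000. Each mouse has 2 blocks of the same transcripts, and what sets the blocks apart is not given in the sources used here. The estimated counts of both blocks were summed here, and the deposited TPM were averaged over the blocks, where a single TPM per transcript had been planned for.

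Transcripts were joined to genes with GENCODE M21. Of them, 1761 had no match and were left out, with 0.429% to 0.611% of the counts of a mouse. In units of 1000000, the counts of a mouse summed to 7.83 to 17.6, of which the gene *Lars2* held 9.28% to 34.3%. Counts were rounded and compared with edgeR 4.0.16 under R 4.3.3, with limma 3.58.1 loaded (TMM normalization, the default filter by sex, sex as the only term), and with DESeq2 1.42.0 as an alternative. Standard errors are the log2 fold change divided by the square root of F, and log2 CPM used a prior count of 2. Python 3.11.15, numpy 2.4.6, pandas 2.3.3 and scipy 1.17.1 were used for the joins, exact tests and sequence searches, and matplotlib 3.10.9 for plots. The tests were tried on simulated data. Each mouse is a separate animal, and 3 counts were taken as the limit of detection.

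The 10 genes and all lists of other genes were chosen with earlier results of these data known. Values are given for all 10, for those genes of the lists on which a result turns, and for the 5 genes most correlated with *Th* and with *Gch1*. Endothelial and tanycyte markers had 0 of 4 and 0 of 3 tested genes past the threshold, other myeloid markers 0 of 5 and transmitter markers 0 of 4, by edgeR, with 0, 0, 2 and 0 at an unadjusted p under 0.05 and 0, 0, 1 and 0 by DESeq2. Astrocyte markers had 0 of 6 (1 unadjusted, 0 by DESeq2) and interferon-response genes 0 of 6 (2 and 0). The values of some genes of the lists are not reported here. The 4 Y-linked genes used to check the sex labels were each higher in every male. Alternatives were another test, normalization and filter, a length offset, a replicate block, each block alone, no *Lars2*, each mouse left out and a scale relative to neuron markers. Leaving out female 1 and male 2 together was added after seeing the data.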

Additional observations from a re-analysis of the deposited data

Results flagged for a closer look

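*Pcbd1*, the gene of the dehydratase that restores used tetrahydrobiopterin, had 15.4 CPM in female 1, far from the other females, which had 9.01, 9.47 and 9.18 CPM. The gap to the nearest of the others was 0.928 of the range of the 4 females, above Dixon's 95% critical value. Of 18 groups of 4 mice examined in this way, 1 stood out, which is about as many as the 5% that chance gives. Female 1 also had the highest sums of oligodendrocyte and microglia markers among the females, 2198 and 1627 CPM, whose part in this value was not tested. Male 1, with the highest *Pcbd1* of all mice, had the lowest of these sums among the males, 879 and 652 CPM.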

How the results depend on the processing

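Between the sexes, 24 genes were called by edgeR. The number was 1052 with DESeq2, 13 with the length offset, 1 with the replicate block, 62 without female 1 and male 2, and 8 to 415 with each mouse left out (415 without female 1 and 411 without male 1). Of the genes described here, the 1 call became 0 with the length offset, the replicate block and each block alone, and 0 to 2 with each mouse left out. Among the genes of the other lists, Y-linked genes aside, the 1 call, *Nos1*, became 6 calls with DESeq2, 4 without female 1 and male 2, and 0 with RLE normalization, the length offset, the replicate block, each block alone and without *Lars2*, and 0 to 9 with each mouse left out. The cause of these changes was not tested. *Gch1* kept its sign in 19 of 19 alternatives, *Pcbd1* and *Qdpr* likewise, while *Slc6a3* took the other sign in 6, *Pts* and *Spr* in 5 each, and *Th*, *Ddc* and *Slc18a2* in 1. The order of levels separated 4 or 5 of 9 pairs in 11 alternatives, and *Pts* fell to 12.7 TPM on coding transcripts alone. Mice with the same replicate number did not deviate together (correlations -0.396, -0.156, 0.0356 and 0.0719), so the numbers were not taken to pair them. Depth limits *Gchfr*, with at most 3 counts per mouse.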
